A study of Mus musculus with 40 samples.

Results

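Whole-tissue RNA of the mouse striatum was compared between 16 of the 40 libraries of the study, which are the 8 RiboTag inputs of the SAPAP3 cohort and the 8 bulk libraries. They were chosen by their labels, but earlier results of these data were known when the libraries and gene lists were chosen. The study profiled striatal astrocytes and neurons in wild-type (WT) mice and in SAPAP3 KO mice, which lack the postsynaptic scaffold protein SAPAP3 (gene Dlgap3) and serve as a model of obsessive-compulsive disorder. In RiboTag, an AAV delivers the ribosomal protein RPL22 with an HA tag to one cell type. Tagged ribosomes are then immunoprecipitated (IP) from the cleared lysate, and the input is RNA taken from that lysate itself, so that it holds RNA of all striatal cell types.

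The inputs came from 4 WT mice labelled C57/BL6J and 4 KO mice labelled C57/BL6J-Dlgap3 KO. The bulk libraries came from 4 WT and 4 KO mice, all labelled C57/BL6NTac, whose tissue was lysed for RNA directly. All mice were adults, for which no age is given in the labels. By the methods of the study, RiboTag AAV was injected at a later age in SAPAP3 KO mice than in the other RiboTag mice. Per the labels, groups with IP libraries were injected with an astrocyte or a neuron RiboTag AAV, driven by the gfaABC1D or the hSyn1 promoter. They do not say which of these the SAPAP3 cohort received, nor whether the bulk mice received any virus. Cohort, labelled strain and the way RNA was taken up all differ between the inputs and the bulk libraries. Virus injection and age may differ as well, and these cannot be told apart in this comparison. As a second set of inputs, the 4 WT inputs of the neuron cohort were used, whose companion IP libraries are named for the hSyn1 promoter. These inputs are labelled C57/BL6NTac like the bulk libraries. By the genes Nnt and Wdfy1, which are known to differ between substrains and are described below, most bulk libraries did not lie near them.

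Microglia are the resident macrophages of the brain and are a main source of transcripts such as Ctss and C1qa in brain tissue. Astrocytes raise the intermediate filament gene Gfap when they become reactive. Interferons, released during infection or by activated lymphocytes, switch on a broad programme that includes GTPases, chemokines and the genes that present antigen on major histocompatibility complex (MHC) class I and class II molecules.

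The inputs held 23438112 to 33333324 counted reads and the bulk libraries 54689535 to 75203125, so that every input was shallower than every bulk library (p = 0.00016 in a two-sided permutation test with exact enumeration, which is the lowest p that 8 against 8 can reach). The neuron-cohort inputs differed from both sets in a few housekeeping genes, such as Oaz1 (at most 0.108 CPM against at least 14.4 CPM elsewhere, chosen after its values were seen), and held high Xist with Y-linked genes at 0. Among the 16 libraries, WT input 4, KO input 1 and WT bulk 3 had high Xist, at 184, 246 and 197 CPM (counts of a gene scaled to the same total of counted reads in each library), with Ddx3y at 0, 0.0332 and 1.15 CPM. The remaining inputs and bulk libraries had Xist of at most 3.57 CPM. WT bulk 1 and KO bulk 1 carry the same animal number in the labels, and the label of WT input 3 joins a further number to its animal number with a point, whose meaning is not given.

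**Figure D1:**
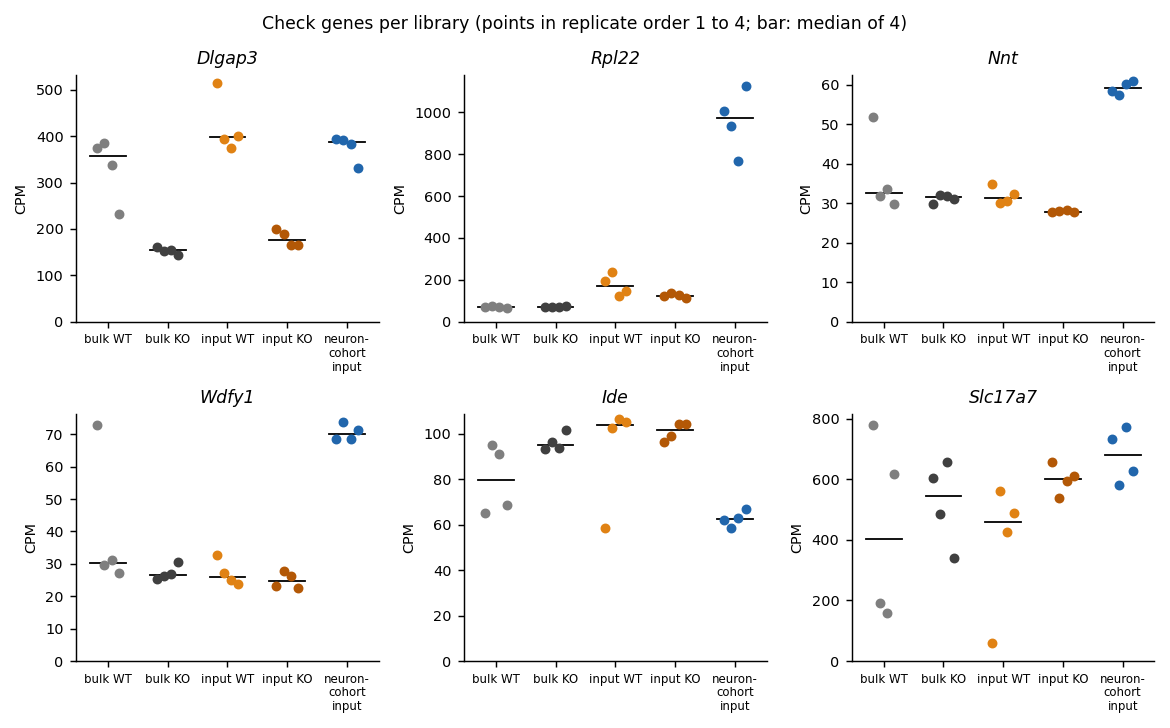
Levels of genes that check the labels, in CPM, with one point per library for the bulk, SAPAP3-cohort input and neuron-cohort input groups and a bar at the median of 4. Dlgap3 was lower in KO than in WT libraries of either kind (at most 200 against at least 232 CPM), Rpl22 was at 66.7 to 75.1 CPM in the bulk libraries and at 112 to 238 CPM in the SAPAP3-cohort inputs, the neuron-cohort inputs stood apart for Rpl22 and Nnt, and WT bulk 1 lay among them for Wdfy1. Ide, a further substrain gene, and Slc17a7, a gene of cortical neurons, fill the last panels, and WT input 1 is the lowest input for both.

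The gene deleted in the KO mice, Dlgap3, was at 514, 395, 376 and 400 CPM in the WT inputs and at 200, 188, 166 and 166 CPM in the KO inputs. In the bulk libraries it was at 376, 386, 338 and 232 CPM in WT mice and at 161, 153, 154 and 144 CPM in KO mice. Every KO library was below every WT library, so the order of the levels followed the genotype labels in both kinds. Reads of Dlgap3 were still counted in the KO mice. The WT bulk library at 232 CPM lay closer to the highest KO bulk library, at 161 CPM, than to the next WT bulk library, at 338 CPM. The order alone does not show that the WT label of this library holds, and its genotype was not tested further. Rpl22, the gene whose tagged copy the AAV carries, ranged from 112 to 238 CPM in the inputs with a median of 131 CPM, and from 66.7 to 75.1 CPM in the bulk libraries. The inputs lay above the bulk libraries without overlap (log2(FC) 1.00, SE 0.11, adjusted p = 2.7e-06 in edgeR's quasi-likelihood test), right at the fold limit used for calls. In the neuron-cohort inputs Rpl22 was at 768 to 1127 CPM. Counts per gene symbol do not separate the tagged from the endogenous copy.

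The labelled strains were set against genes that are known to differ between the C57BL/6J and C57BL/6N substrains. Nnt, a mitochondrial transhydrogenase that is partly deleted in C57BL/6J mice, was at 27.8 to 34.9 CPM in the inputs and at 29.7 to 32.2 CPM in 7 of the 8 bulk libraries. WT bulk 1 had 51.8 CPM, and the neuron-cohort inputs had 57.4 to 60.9 CPM. Wdfy1, an endosomal protein gene, was at 22.5 to 32.6 CPM in the inputs, at 25.4 to 31.1 CPM in the same 7 bulk libraries, at 73.0 CPM in WT bulk 1 and at 68.5 to 73.8 CPM in the neuron-cohort inputs. By these 2 genes the inputs and 7 of the 8 bulk libraries lay together, although their labels name different strains, and WT bulk 1 lay near the neuron-cohort inputs. None of the 6 genes of this list was called between inputs and bulk.

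Inputs and bulk were first compared over all genes, with genotype as a covariate. Genes of the interferon response, of antigen presentation, of complement and of lymphocytes were far higher in the inputs, with Gfap 4.17-fold and Ctss 3.89-fold higher. No listed gene of neurons, oligodendrocytes or resting astrocytes passed the limits used for calls. Calls required a p-value of less than 0.05 after Benjamini-Hochberg adjustment in edgeR's quasi-likelihood test, together with an absolute log2(FC) of more than 1. Of 16258 genes tested, 935 were called higher in the inputs (5.75%) and 11 lower (0.0677%). The median log2(FC) of all tested genes was -0.00728. Each input lay above each bulk library for 1123 genes (6.91%) and below for 594 genes (3.65%), on levels scaled by the TMM method, on which all counts of genes without overlap are based. Of the 935 genes called higher, 766 had no overlap between the kinds and 339 had a mean of at least 5 CPM in the inputs. As the libraries hold whole tissue, fewer cells of a type and less RNA per cell cannot be told apart. With a filter like that of the study, FPKM above 5 in all 4 libraries of a group, 8344 genes were tested and 127 were called higher and 1 lower, and without a limit on the fold 2797 were higher and 2610 lower.

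**Figure D2:**
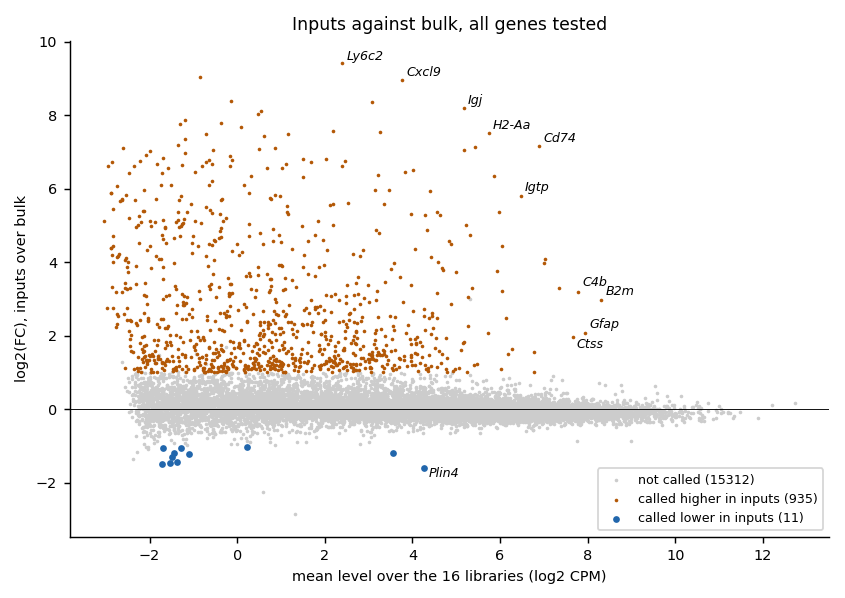
Log2(FC) of inputs over bulk striatum against the mean log2 CPM of each tested gene, with the 935 genes called higher and the 11 called lower marked. The bulk of the genes lies around 0, and the named immune genes lie above the fold limit of 1. The value of Ly6c2 is a fitted one, since the bulk libraries had at most 3 counts of it.

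Gfap, the reactive astrocyte marker, was at 491, 466, 242 and 448 CPM in the WT inputs and at 363, 396, 384 and 432 CPM in the KO inputs (n = 4 each). In the bulk libraries it was at 125, 99.7, 80.3 and 95.0 CPM in WT mice and at 59.95, 73.0, 75.6 and 142 CPM in KO mice. The lowest input, WT input 3, was above the highest bulk library, KO bulk 4. The log2(FC) of inputs over bulk was 2.06 (SE 0.17, 4.17-fold, adjusted p = 6.5e-08, edgeR).

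Ctss, which encodes the microglial lysosomal protease cathepsin S, was at 467, 340, 185 and 439 CPM in the WT inputs and at 256, 355.5, 274 and 302 CPM in the KO inputs. In WT and KO bulk libraries it stayed between 68.4 and 93.3 CPM. The groups did not overlap, and WT input 3 was again the lowest input. The log2(FC) was 1.96 (SE 0.145, 3.89-fold, adjusted p = 2.0e-08, edgeR).

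**Figure D3:**
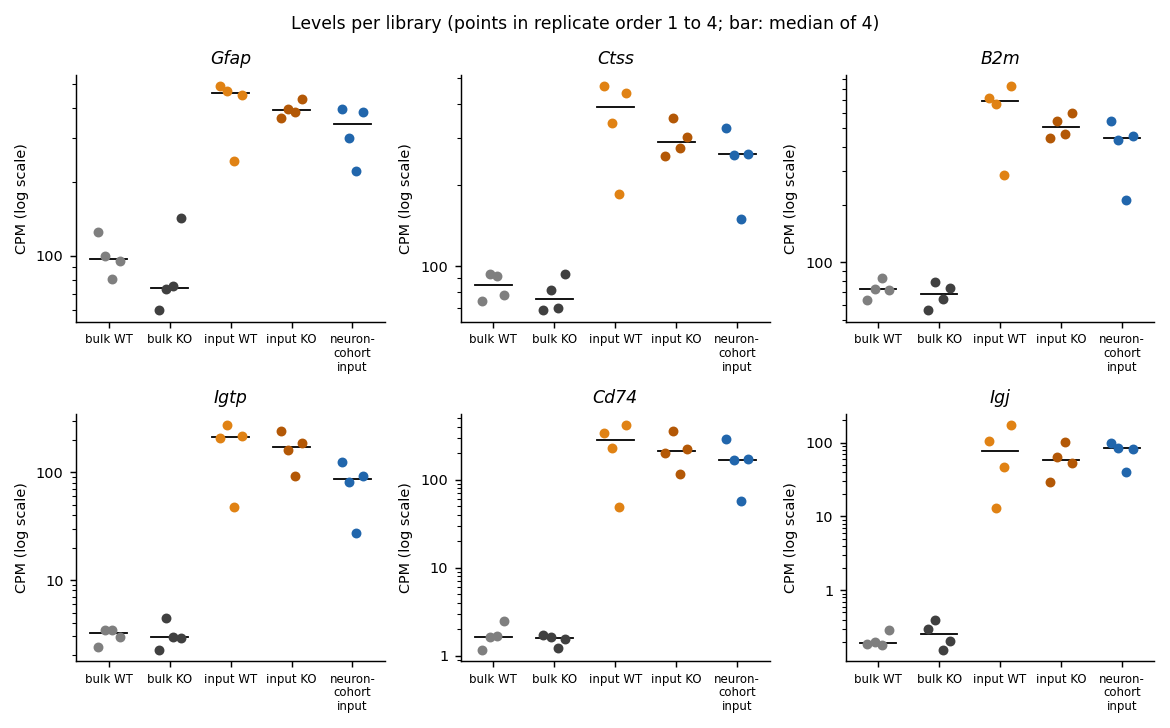
Levels of Gfap, Ctss, B2m, Igtp, Cd74 and Igj in CPM on log axes, with one point per library in replicate order and a bar at the median of 4, for WT and KO bulk libraries, WT and KO inputs of the SAPAP3 cohort and neuron-cohort inputs. All inputs lie above all bulk libraries for each of the 6 genes, and WT input 3 is the lowest SAPAP3-cohort input for each but Igj.

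The interferon response is represented by 34 listed genes, and each was called higher in the inputs without overlap between the kinds. Their median log2(FC) was 4.35, with a range of 1.60 to 8.96, beside a median of -0.00728 over all genes. The summed level of the list was 725 to 2819 CPM in the inputs and 104 to 189 CPM in the bulk libraries. The 3 members first described here with their promoters are B2m, which encodes the light chain of MHC class I molecules, and Igtp and Irgm1, which encode interferon-inducible GTPases that act against intracellular pathogens. All 3 were chosen from the interferon and class I lists because their promoters hold the motif given below, as the members with it of highest mean input level. B2m stands in the list of class I genes. H2-K1 and H2-D1 had higher mean input levels than Igtp and Irgm1, but their promoters had no match. The promoters are RefSeq sequences of GRCm38.p6, the assembly of mm10, from 250 bases before to 50 bases after the annotated start and written 5′ to 3′ on the strand of the gene. The capitals mark matches to a motif of 10 letters, GAAA followed by any 2 letters and GAAA again, a core of the element that interferon-activated factors of the IRF family are known to bind. B2m is at chr2:122147437-122147736 on the plus strand, with 1 match that begins 139 bases before the start. Igtp is at chr11:58199306-58199605 on the plus strand, with 1 match that begins 34 bases before the start. Irgm1 is at chr11:48871371-48871670 on the minus strand, with 2 overlapping matches, the first of which begins 30 bases before the start.
B2m: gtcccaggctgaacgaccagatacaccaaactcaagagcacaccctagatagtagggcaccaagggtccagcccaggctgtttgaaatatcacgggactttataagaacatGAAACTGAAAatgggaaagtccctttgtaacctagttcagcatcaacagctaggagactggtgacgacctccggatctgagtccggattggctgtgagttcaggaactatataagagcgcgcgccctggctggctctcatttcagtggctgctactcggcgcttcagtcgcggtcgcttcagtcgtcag
Igtp: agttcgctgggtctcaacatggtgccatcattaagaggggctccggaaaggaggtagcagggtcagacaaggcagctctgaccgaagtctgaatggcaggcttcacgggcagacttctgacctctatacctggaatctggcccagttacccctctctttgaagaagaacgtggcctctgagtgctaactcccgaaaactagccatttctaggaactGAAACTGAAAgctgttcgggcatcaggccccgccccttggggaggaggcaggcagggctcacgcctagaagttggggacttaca
Irgm1: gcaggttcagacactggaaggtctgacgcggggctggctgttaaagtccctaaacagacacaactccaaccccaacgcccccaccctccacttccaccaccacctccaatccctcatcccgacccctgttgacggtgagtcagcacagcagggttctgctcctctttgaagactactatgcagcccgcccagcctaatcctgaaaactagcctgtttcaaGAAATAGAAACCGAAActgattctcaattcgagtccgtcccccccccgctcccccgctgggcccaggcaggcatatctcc

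Searched on both strands, the motif stood in the promoter window of 15 of the 23 interferon genes with a promoter in the RefSeq table (65.2%) and of 3 of 11 class I genes (27.3%). It stood in 444 of the 11915 tested genes with a promoter (3.73%) and in 1131 of all 32851 promoters of the table (3.44%). A match describes the letters of the window and is neither a shown binding site nor a cause of the levels.

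Igtp was at 206, 274, 47.7 and 218 CPM in the WT inputs and at 242, 160.0, 91.7 and 185 CPM in the KO inputs. In the bulk libraries it ranged from 2.26 to 4.47 CPM with a median of 2.97 CPM. The lowest input, WT input 3, was still far above the highest bulk library, and the log2(FC) was 5.79 (SE 0.33, adjusted p = 1.7e-09, edgeR). Irgm1 was at 40.3 to 190 CPM in the inputs (median 140 CPM) and at 5.03 to 7.17 CPM in the bulk libraries (median 5.62 CPM), with a log2(FC) of 4.43 (SE 0.26).

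Among the chemokines that interferon-γ induces to attract T cells, Cxcl9 was at 6.68 to 43.3 CPM in the inputs with a median of 31.5 CPM and at 0 to 0.183 CPM in the bulk libraries (log2(FC) 8.96, SE 0.50). Cxcl10 was at 6.59 to 32.4 CPM in the inputs and at 0 to 0.878 CPM in the bulk libraries (log2(FC) 6.37, SE 0.51). The bulk libraries had at most 10 counts of Cxcl9 and 48 counts of Cxcl10, so the size of these ratios rests on few reads. Zbp1, a sensor of left-handed nucleic acids, was at 4.39 to 17.1 CPM in the inputs and at 0.0463 to 0.256 CPM in the bulk libraries (log2(FC) 6.75, SE 0.36). The guanylate-binding protein genes Gbp10 and Gbp8, which are not on the list, with log2(FC) of 8.34 and 7.55, belong to a family of close copies, and how reads shared between copies were counted is not given in the sources used here.

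The order of the libraries within each kind was shared by most interferon genes. WT input 3 was the lowest input for 33 of the 34 genes, and the highest was WT input 2 for 20 genes and WT input 1 for 13 genes. In the bulk libraries, KO bulk 2 was among the 2 highest for 30 of the 34 genes and WT bulk 3 for 28 genes. Over all 935 genes called higher, WT input 3 was the lowest input for 681 (72.8%), with a median ratio of 0.547 to the median input. It was not the shallowest input, having 31866625 counted reads. Without WT input 3, 1040 genes were called in either direction, compared with 946 with it.

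Class I antigen presentation, by which cells display peptides from their own proteins to cytotoxic T cells, had 14 listed genes, of which 13 passed the filter on low counts. All 13 tested genes were called higher (median log2(FC) 3.98, range 1.10 to 5.92), 12 of them without overlap. B2m was at 722, 665, 284 and 831 CPM in the WT inputs and at 444, 547, 467 and 601 CPM in the KO inputs, against 56.2 to 82.9 CPM in the bulk libraries. The lowest input, WT input 3, was well above the highest bulk library, WT bulk 3, and the log2(FC) was 2.96 (SE 0.17, 7.80-fold, adjusted p = 1.7e-09, edgeR). The classical heavy chain gene H2-K1 was at 101 to 374 CPM in the inputs and at 11.2 to 18.8 CPM in the bulk libraries (log2(FC) 4.07, SE 0.22). H2-D1, the other classical heavy chain gene, had nearly the same change, with a log2(FC) of 3.98 (SE 0.20). Nlrc5, the transactivator of class I genes, had the largest log2(FC) of this list at 5.92 (SE 0.35), from a median of 0.659 CPM in bulk to 48.4 CPM in the inputs. Tap1, a subunit of the peptide transporter, had a log2(FC) of 5.00 (SE 0.33) and H2-Q4, a non-classical class I gene, one of 5.27 (SE 0.29). Heavy chain genes are near copies of each other, which leaves the split of reads among them uncertain.

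Class II antigen presentation, normally a property of professional antigen-presenting cells, had 9 listed genes, and all 9 were called higher without overlap (median log2(FC) 6.79, range 1.10 to 7.52). The summed level of the list was 133 to 944 CPM in the inputs and 16.7 to 22.4 CPM in the bulk libraries. Cd74, the invariant chain that guides class II molecules, was at 336, 231, 49.1 and 418 CPM in the WT inputs and at 202, 360.5, 118 and 222 CPM in the KO inputs. In the bulk libraries it was at 1.17 to 2.47 CPM with a median of 1.63 CPM. WT input 3 and KO input 3 were the lowest inputs, both far above the bulk libraries, and the log2(FC) was 7.16 (SE 0.41, 143-fold, adjusted p = 1.8e-09, edgeR). H2-Aa, the class II alpha chain, was at 22.97 to 182 CPM in the inputs and at 0.372 to 0.828 CPM in the bulk libraries, with a log2(FC) of 7.52 (SE 0.42). The beta chains H2-Ab1 and H2-Eb1 had log2(FC) of 7.13 (SE 0.40) and 7.06 (SE 0.42).

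Most lymphocyte genes were higher in the inputs, and several had only a few counts in the bulk libraries. Of 23 listed genes, 19 were in the table and tested, 18 were called higher and 17 had no overlap, with a median log2(FC) of 6.43. With the 9 genes that had at most 3 counts in each bulk library set at their lower bounds, the median was 4.51. A lower bound was computed against 3 counts per bulk library, a mean of 0.0471 CPM. The T cell receptor chain Cd3g, which was chosen for mention after its values were seen, was at least 50.1-fold higher in the inputs. Nkg7, a granule gene of cytotoxic T and natural killer cells, ranged from 0.471 to 3.97 CPM in the inputs and was at least 34.0-fold higher. Ms4a1, which encodes the B cell antigen CD20, ranged from 0.465 to 1.54 CPM and was at least 20.6-fold higher. Ccl5, a chemokine of activated T cells, had a log2(FC) of 6.80 (SE 0.56). Igj, the joining chain of secreted antibodies, was at 106, 12.9, 47.5 and 173 CPM in the WT inputs and at 29.6, 64.7, 104 and 53.6 CPM in the KO inputs, against 0.156 to 0.398 CPM in the bulk libraries. The inputs themselves spread widely, with WT input 2 lowest and WT input 4 highest, and none overlapped the bulk libraries (log2(FC) 8.19, SE 0.55, adjusted p = 8.0e-09, edgeR). Cd4, the member that was not called, was at 35.6 to 67.9 CPM in the inputs and at 28.1 to 63.1 CPM in the bulk libraries (log2(FC) -0.07).

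Among genes of perivascular and peripheral myeloid cells, 4 of the 8 tested members (12 listed) were called higher and none lower. Ly6c2, a surface antigen of inflammatory monocytes, was at 5.84 to 24.6 CPM in the inputs and at 0 to 0.0497 CPM in the bulk libraries, so that it was at least 243-fold higher. It has a near copy, Ly6c1, in endothelial cells. The monocyte chemokine receptor gene Ccr2 was at 1.66 to 6.47 CPM in the inputs and at 0.0771 to 0.315 CPM in the bulk libraries (log2(FC) 4.54, SE 0.30). Plac8, another gene of monocytes and lymphocytes, had a log2(FC) of 6.57 (SE 0.42). The perivascular macrophage gene Mrc1, a mannose receptor, was at 4.75 to 7.76 CPM in the inputs and at 3.31 to 4.72 CPM in the bulk libraries, with a log2(FC) of 0.57 that was below the fold limit. Slamf7, a surface receptor of plasma, natural killer and myeloid cells, was at 2.57 to 8.68 CPM in the inputs and at 0 to 0.0633 CPM in the bulk libraries (log2(FC) 7.47, SE 0.35). The only tested gene of red blood cells, Alas2, was at 2.19 to 3.66 CPM in the inputs and at 1.89 to 5.36 CPM in the bulk libraries.

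Of 24 genes of resident microglia, 9 were called higher and none lower, with a median log2(FC) of 0.784, and 18 were higher in each input than in each bulk library. Their summed level was 1306 to 2564 CPM in the inputs and 816 to 993 CPM in the bulk libraries. C1qc, a chain of the first complement component, was at 66.3 to 186 CPM in the inputs with a median of 112 CPM and at 30.6 to 39.5 CPM in the bulk libraries (log2(FC) 1.65, SE 0.15). Aif1, which encodes the macrophage protein IBA1, was at 8.44 to 22.2 CPM in the inputs and at 3.36 to 4.19 CPM in the bulk libraries (log2(FC) 1.89, SE 0.15). The lysosomal enzyme gene Lgmn did not overlap between the kinds but stayed under the fold limit, with a log2(FC) of 0.54. P2ry12, Gpr34 and Fcrls, receptors of homeostatic microglia chosen for mention after their values were seen, had log2(FC) of -0.09, -0.11 and -0.21. The members of the list therefore did not change by a common factor.

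Genes of activated microglia likewise held called and uncalled members, with 8 of 20 called higher and a median log2(FC) of 0.794. Cst7, which encodes the cysteine protease inhibitor cystatin F, was at 4.86 to 17.2 CPM in the inputs and at 0.0303 to 0.232 CPM in the bulk libraries (log2(FC) 6.62, SE 0.33). The integrin gene Itgax (CD11c) was at 3.58 to 15.0 CPM in the inputs and at 0.154 to 0.434 CPM in the bulk libraries (log2(FC) 5.01, SE 0.32). Cd52, a small glycoprotein of leukocytes, had a log2(FC) of 3.98 (SE 0.22). Cst7, Itgax and Cd52 are also expressed by dendritic cells or lymphocytes. Apoe, a lipoprotein gene shared with astrocytes, was at 1099 to 1380 CPM in the inputs and at 989 to 1372 CPM in the bulk libraries (log2(FC) 0.03).

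Complement genes were called higher for 10 of 13 tested members (14 listed), with a median log2(FC) of 2.61. C4b, of the classical pathway, was at 613, 524, 199 and 433 CPM in the WT inputs and at 406, 392, 267 and 379 CPM in the KO inputs, against 26.0 to 56.1 CPM in the bulk libraries. The kinds did not overlap (log2(FC) 3.19, SE 0.22, 9.16-fold). The central component C3 was at 14.3 to 63.9 CPM in the inputs and at 0.469 to 1.57 CPM in the bulk libraries (log2(FC) 5.28, SE 0.33). Cfb, of the alternative pathway, was at 4.27 to 39.7 CPM in the inputs and at 0.0154 to 0.288 CPM in the bulk libraries (log2(FC) 7.54, SE 0.54).

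Reactive astrocyte genes were called higher for 15 of 33 tested members (34 listed), with a median log2(FC) of 0.963. Beside Gfap, Serpina3n, a secreted protease inhibitor, was at 27.0 to 76.4 CPM in the inputs and at 4.39 to 8.62 CPM in the bulk libraries (log2(FC) 2.86, SE 0.19). Tgm1, a transglutaminase, was at 1.60 to 8.47 CPM in the inputs and at 0.0183 to 0.158 CPM in the bulk libraries (log2(FC) 5.71, SE 0.39). Timp1, an inhibitor of matrix proteases, had a log2(FC) of 2.50 (SE 0.37). Stat3, a transcription factor of the reactive state, stayed under the fold limit with a log2(FC) of 0.71, and Fkbp5, a glucocorticoid target, had one of -0.30.

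Genes of resting astrocytes had a median log2(FC) of 0.000146, and none of 18 was called. Over all tested genes 5.75% were called higher and 0.0677% lower, and no call among 18 genes is near those shares. Within the fold limit, 6 of the 18 were higher and 5 lower at an adjusted p under 0.05 in edgeR. The median of the list therefore joins opposed shifts. Slc1a2, the main glutamate transporter, was at 3911 to 5740 CPM in the inputs and at 3979 to 4845 CPM in the bulk libraries (log2(FC) 0.11). Glul, the glutamine synthetase, was at 1249 to 1653 CPM in the inputs and at 1609 to 1996 CPM in the bulk libraries (log2(FC) -0.31). Atp1b2, a subunit of the sodium pump, and the transcription factor Sox9 had log2(FC) of 0.64 and 0.63, below the fold limit. Summed over the list, the inputs had 7993 to 10080 CPM and the bulk libraries 8451 to 9333 CPM, so that the sums overlapped while Gfap did not.

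**Figure D4:**
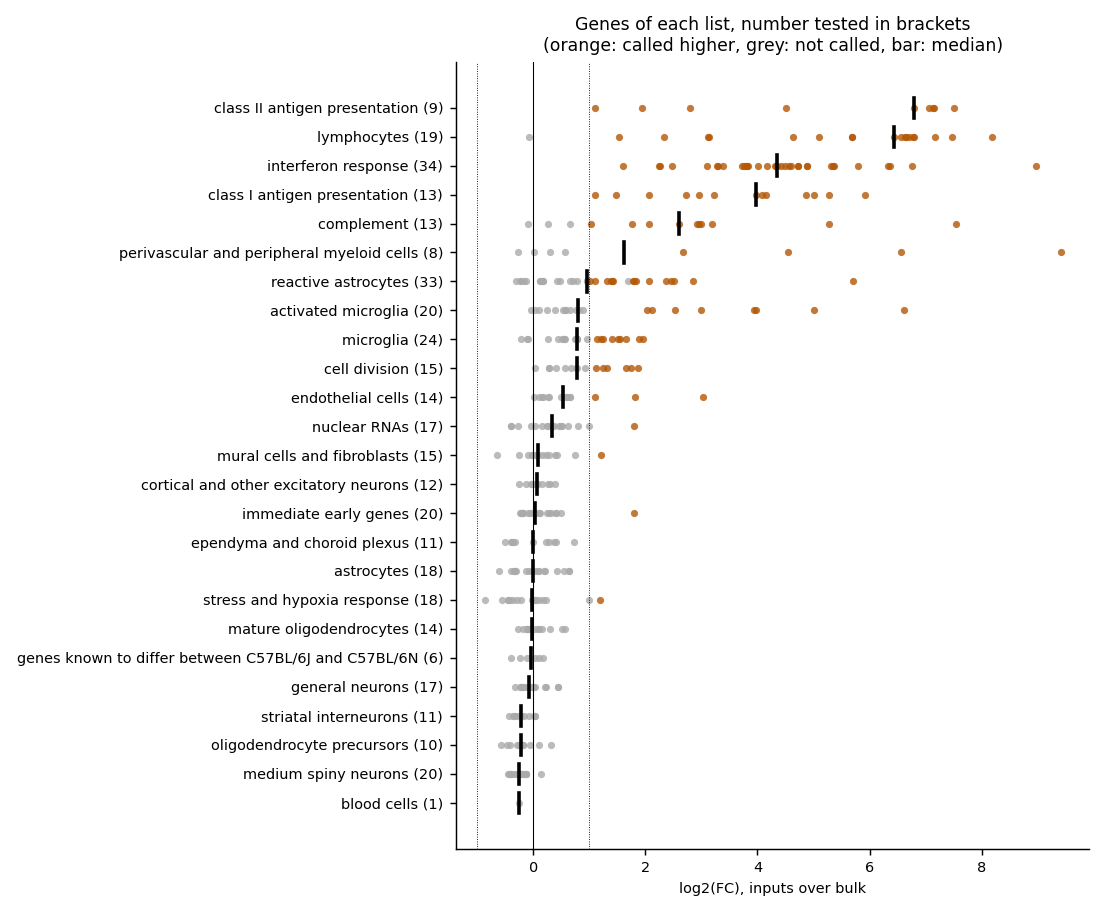
Log2(FC) of inputs over bulk for each tested member of each gene list, with one point per gene, orange where called higher and grey where not called, a bar at the median of the list and dotted lines at the fold limit. The interferon, class I, class II and lymphocyte lists lie far above 0, those of microglia and reactive astrocytes spread from about 0 upwards, and those of neurons, oligodendrocytes and resting astrocytes lie around 0.

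No list had a gene called lower. Over all tested genes 0.0677% were called lower and 5.75% higher. At these shares a single list of 10 to 20 genes would hold few calls or none. The lists of mature oligodendrocytes (14 genes, median log2(FC) -0.0295), oligodendrocyte precursors (10 genes, -0.22), medium spiny neurons (20 genes, -0.248), striatal interneurons (11 genes, -0.216), cortical and other excitatory neurons (12 genes, 0.0679), general neurons (17 genes, -0.069) and ependyma and choroid plexus (11 genes, 0.00177) had no call. Within the fold limit, 5 oligodendrocyte precursor genes were lower and 0 higher at an adjusted p under 0.05 in edgeR. Of the general neuron genes, 4 were lower and 2 higher in this way. Mbp, the myelin basic protein gene, was at 2143 to 2478 CPM in the inputs and at 1649 to 3335 CPM in the bulk libraries. Drd2, the dopamine receptor of indirect-pathway medium spiny neurons, was at 60.6 to 119 CPM in the inputs and at 69.3 to 157 CPM in the bulk libraries (log2(FC) -0.42). The range of the bulk libraries covered most of that of the inputs for both genes. Slc17a7, the glutamate transporter of cortical neurons, varied widely within each kind, from 59.3 to 657 CPM in the inputs and from 158 to 780 CPM in the bulk libraries.

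Endothelial genes were called higher for 3 of 14 tested members (16 listed, median log2(FC) 0.538). These were Icam1 (log2(FC) 3.03, SE 0.21), the surface antigen gene Ly6a (1.81, SE 0.18) and Vcam1 (1.11, SE 0.10), of which Icam1 and Vcam1 encode adhesion molecules for leukocytes. Flt1, a receptor for vascular endothelial growth factor, was at 22.96 to 39.2 CPM in the inputs and at 16.4 to 25 CPM in the bulk libraries (log2(FC) 0.58). Among 15 genes of mural cells and fibroblasts, the collagen gene Col3a1 alone was called (log2(FC) 1.21, SE 0.16, list median 0.0918). Over all tested genes 5.75% were called higher, and the share of the mural cell and fibroblast list was close to that.

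Cell division genes were called higher for 6 of 15 members, with a median log2(FC) of 0.774. The proliferation marker Mki67 was at 4.21 to 12.5 CPM in the inputs and at 1.64 to 5.2 CPM in the bulk libraries, with overlap (log2(FC) 1.65, SE 0.25). Top2a, which untangles DNA before division, was at 7.66 to 17.6 CPM in the inputs and at 3.09 to 8.63 CPM in the bulk libraries (log2(FC) 1.32, SE 0.20). Cdk1 and Aurkb, kinases of mitosis, had log2(FC) of 1.87 and 1.75. Mcm5, a subunit of the replicative helicase, was at 7.63 to 11.9 CPM in the inputs and at 8.22 to 11.5 CPM in the bulk libraries (log2(FC) 0.03).

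Lists that bear on handling of the tissue had 1 call each, a share close to the 5.75% called higher over all genes. Of 20 immediate early genes only Atf3, a stress-induced transcription factor, was called (log2(FC) 1.79, SE 0.24, list median 0.035). Of 18 stress and hypoxia genes only Hmox1, the haem oxygenase, was called (log2(FC) 1.20, SE 0.13, list median -0.017). The heat shock gene Hspa8 was at 597 to 813 CPM in the inputs and at 840 to 1148 CPM in the bulk libraries, without overlap (log2(FC) -0.44). Of 17 tested nuclear RNAs (22 listed) only Neat1, the scaffold of paraspeckles, was called, at 34.7 to 80.1 CPM in the inputs and 10.6 to 24.1 CPM in the bulk libraries (log2(FC) 1.80, SE 0.18, list median 0.328). Malat1, another nuclear RNA, was at 4934 to 10810 CPM in the inputs and at 4903 to 6839 CPM in the bulk libraries (log2(FC) 0.16). Genes encoded by the mitochondrial genome were not in the table. Whether lysis or handling of the tissue had a part in the differences was not tested.

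The 11 genes called lower in the inputs all overlapped between the kinds. They are named here because they are few and were chosen after their values were seen: Crygn, Hsf2bp, Hsf3, Ifi27l2b, Nts, Plin4, Rtp1, Scd4, Slco1b2, Tekt4 and Tmem82. Plin4, a lipid droplet gene, was at 3.12, 5.24, 5.59 and 7.58 CPM in the WT inputs, at 5.21, 5.91, 22.8 and 27.1 CPM in the KO inputs and at 15.7 to 40.2 CPM in the bulk libraries (log2(FC) -1.60). KO inputs 3 and 4 lay within the range of the bulk libraries and the other 6 inputs below it. Nts, which encodes the neuropeptide neurotensin, was at 3.53 to 9.64 CPM in the inputs and at 8.62 to 21.9 CPM in the bulk libraries (log2(FC) -1.18).

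Whether the difference between inputs and bulk was present in both genotypes was examined next. The immune genes were higher in the inputs of WT and of KO mice alike, and no gene differed in this respect between the genotypes beyond the threshold. In WT mice alone, 812 of 15865 genes were called higher (5.12%) and 7 lower. In KO mice alone, 803 of 15947 genes were called higher (5.04%) and 18 lower. Of the 15774 genes tested in both, 680 were called higher in both, which is 85.0% of the 800 in WT and 88.8% of the 766 in KO mice. These 2 comparisons share no library. All 34 interferon genes, all 13 class I genes and all 9 class II genes were called higher in either genotype, with medians of 4.28 and 4.32, 4.11 and 3.87, and 6.61 and 6.95 on the log2 scale in WT and KO mice. Gfap had a log2(FC) of 1.98 (SE 0.22) in WT mice and 2.16 (SE 0.21) in KO mice.

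The genotype difference of the input-to-bulk ratio was tested with an interaction term. No gene of 16258 passed an adjusted p of 0.05 (0%) with edgeR, limma-voom or DESeq2, and 908 genes had an unadjusted p under 0.05 with edgeR. The 5 smallest p-values were those of Abcb1a, Heph, Tmem64, Hsph1 and Zbtb40, each with an adjusted p of 0.86. For Gfap the log2(FC) differed by 0.18 (SE 0.34) between KO and WT mice. With 4 libraries a group, a p that misses the threshold does not show that the genotypes were equal.

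**Figure D5:**
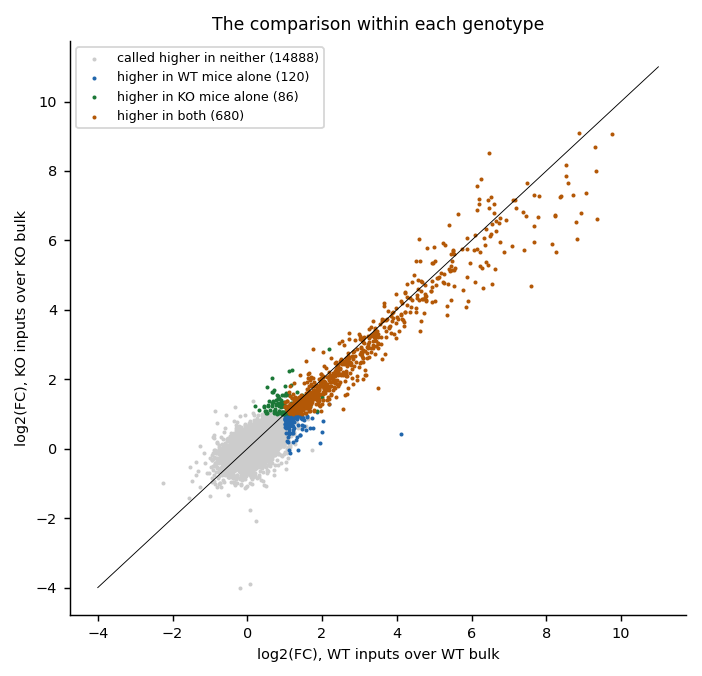
Log2(FC) of inputs over bulk in KO mice against that in WT mice, with one point per gene tested in both genotypes coloured by whether it was called higher in WT mice alone (120), in KO mice alone (86), in both (680) or in neither. The line marks equal values. Pearson's r was 0.94 and Spearman's rho 0.653 across genes, which are not independent replicates, and the genes called higher in both lie along the line.

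A second set of inputs was set against the same WT bulk libraries, to see whether inputs of another cohort stood above bulk striatum for the same gene groups. Interferon, antigen presentation and lymphocyte genes were also higher in the neuron-cohort inputs. In these 816 of 16406 genes were called higher than in WT bulk libraries (4.97%) and 72 lower. Gfap was at 394, 301, 221 and 385 CPM in the neuron-cohort inputs, Ctss at 326, 259, 149 and 262 CPM and Cd74 at 287, 166, 56.8 and 170.0 CPM. All of these values lay above those of all 8 bulk libraries. Igj was at 99.4, 85.1, 40.4 and 83.3 CPM, within the range of the SAPAP3-cohort inputs. All 34 interferon genes were called higher (median log2(FC) 3.44), as were 11 of 13 class I genes (2.78), 8 of 9 class II genes (5.70), 17 of 19 lymphocyte genes (5.17) and 5 of 24 microglia genes (0.553). Of the 935 genes called higher in the SAPAP3-cohort inputs, 919 were tested here and 647 were called higher. The median log2(FC) was 2.04 over the 935 genes in the SAPAP3 cohort and 1.51 over the 919 genes in the neuron cohort. As the genes were picked by their values in the SAPAP3 cohort, these medians do not compare the size of the differences. Both comparisons also use the WT bulk libraries. The neuron-cohort inputs had high Xist without Y-linked genes, and among the WT bulk libraries only WT bulk 3 had high Xist. The listed sex genes had a median log2(FC) of -13.6 for neuron-cohort inputs over WT bulk libraries. By Nnt and Wdfy1, only WT bulk 1 lay near the neuron-cohort inputs, although the labels name the same strain. The part of sex and substrain in the 816 and 72 calls was not tested.

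Set directly against each other, the SAPAP3-cohort WT inputs had 80 of 16406 genes called higher (0.488%) and 42 lower (0.256%) than the neuron-cohort inputs. Of the immune lists, 1 class I gene, 1 complement gene, 1 gene of activated microglia and no interferon, class II or lymphocyte gene was called. The interferon list nevertheless had a median log2(FC) of 0.907 in favour of the SAPAP3 cohort. This count rested on single libraries, since 264 genes were called without WT input 3 and 71 without WT input 2 or without WT input 4. Among the 80 genes were 4 sex genes, and all neuron-cohort inputs had Y-linked genes at 0. Age may also differ between these sets of inputs, and its part was not tested.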

How the data were processed

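The authors deposited raw counts per gene symbol in one table, with no normalization, and all values are whole. The submitters' processing notes name STAR, HTSeq and mm10. Versions, annotation, strand setting and the handling of reads with several alignments are not given in the sources used here. The labels name a stranded kit with ribosomal RNA depletion on a HiSeq4000, and the methods of the study another kit and sequencer.

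From these counts, edgeR 4.0.16 in R 4.3.3 was used (filterByExpr, TMM, glmQLFit, glmQLFTest, Benjamini-Hochberg adjustment) with the study's limits of 0.05 and a log2(FC) of 1. The study itself used limma-voom. The fit of inputs against bulk held 16 libraries with genotype as a covariate, the fits within a genotype 8 libraries, the interaction all 16, and the fits with the neuron cohort its 4 inputs, the WT inputs and the WT bulk libraries. CPM use the total counts of each library, and 3 counts per library served as the floor for lower bounds, which cover counting error only. FPKM in one alternative used merged exon lengths of GRCm38.p6, found for 99.2% of the symbols. Promoters are from RefSeq. Limma 3.58.1, DESeq2 1.42.0, pandas 2.3.3 and matplotlib 3.10.9 served for alternatives and plots. Simulated counts in which 200 genes had been changed were first run with edgeR, limma-voom and DESeq2. They covered inputs against bulk, the same in WT mice, the interaction and the comparison between the sets of inputs. The fits in KO mice and of neuron-cohort inputs against WT bulk, glmTreat and the permutation test were not simulated. By the methods of the study, RiboTag striata were homogenized one by one, and the samples of each experiment were multiplexed together. The methods do not say which groups formed an experiment, and the names of the neuron-cohort inputs give no animal number. The p-values measure the spread between these libraries.

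Named genes are Gfap and Ctss, Dlgap3, Rpl22, Nnt and the sex genes, the 12 genes with the largest log2(FC) in each direction among called genes without overlap and with a mean of at least 5 CPM in the higher kind (319 qualified as higher and 0 as lower), up to 6 members of each list (the 3 highest in level and the 3 with the largest absolute log2(FC)), and the 5 smallest p-values of the interaction. Other genes are named as chosen after their values were seen, and a few genes that the rule names are not reported here. The libraries and gene lists were chosen with earlier results of these data known.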

Additional observations from a re-analysis of the deposited data

Results flagged for a closer look

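A library is listed here where its distance to the nearest other library of its group of 4 took up most of the range of the group (Dixon's test, 523 groups of values, 50 past the limit or 9.56%, whereas chance alone puts about 1 in 20 past it). The values below are in CPM.

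WT input 3 stood below the other WT inputs for Gfap (241.9), Gbp8 (2.008), Lgmn (150), Cst7 (4.864), Plac8 (1.946), Zbp1 (4.393), Ly6a (14.69) and Cdkn1a (7.28). Most of these are genes that were called higher in the inputs, and the cause was not tested.

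WT input 1 stood above the other WT inputs for the medium spiny neuron genes Pde10a (2876) and Adcy5 (1979), and for Vtn (61.18) and Crb1 (2.432), and below them for the general neuron genes Snap25 (1403) and Syt1 (941.3) and for Ide (58.28).

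The sex genes marked 3 libraries. WT input 4 had Xist at 184.1, Ddx3y at 0, Kdm5d at 0 and Uty at 0.0334. KO input 1 had Xist at 246.2, Ddx3y at 0.0332 and Kdm5d, Uty and Eif2s3y at 0, and was also low for Fth1 (967.9). WT bulk 3 had Xist at 197.2 and Ddx3y at 1.152. With Xist as a covariate 930 genes were called between inputs and bulk, compared with 946 without it.

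Within the KO inputs, KO input 2 was high for the myeloid gene Itgax (13.43), for C3 (63.15), Slc2a1 (57.63), Col1a1 (5.289) and Hsph1 (294). KO input 3 was high within the same group for Nnt (28.35, the others 27.82 to 27.89) and Ccdc153 (2.7).

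Each bulk library was likewise set against those of the same genotype and not against all bulk libraries. KO bulk 2 was high for Cd52 (1.889) and C4b (56.1) and low for Aldoc (746.6). WT bulk 1 was high for Wdfy1 (72.96) and low for Alas2 (1.888), and WT bulk 4 was low for C1qc (30.55) and high for F13a1 (3.007). KO bulk 1 was high for Flt1 (25) and Icam1 (2.029), KO bulk 3 low for Col1a1 (0.9683), and KO bulk 4 high for Agt (42.49), Ccdc153 (5.527), Egr4 (18.61) and Hspa5 (260.1).

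Some libraries outside these comparisons also held one or both of the 2 marker genes at levels above those of the bulk libraries. In the 4 inputs of the further WT cohort, labelled C57/BL6NTac, Gfap was at least 193.9 and Ctss at least 180.9. In the 8 IP libraries of the SAPAP3 cohort, Gfap was at least 2229, whereas Ctss lay below every bulk library. IP libraries hold RNA from tagged ribosomes and not from whole tissue. These groups were not tested against the bulk libraries.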

How the results depend on the processing

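No paired analysis was possible because the inputs and the bulk libraries come from different mice and share no animal, so that equal replicate numbers do not pair them. The 946 calls of inputs against bulk became 128 with FPKM above 5 in all 4 libraries of a group, which tests fewer genes, 5407 without the fold limit and 619 when the test was set against a log2(FC) of 1 (glmTreat). Limma-voom, DESeq2, other scalings, no filter, no genotype covariate, Xist as a covariate and leaving out libraries gave 928 to 1140 calls. Without WT bulk 1 and 4, or WT inputs 1 and 3, both chosen after seeing the data, there were 958 and 1050. Leaving out each library in turn gave 929 to 1040 calls for inputs against bulk, 729 to 996 in WT mice, 792 to 912 in KO mice, 0 to 0 for the genotype difference, 753 to 978 for the neuron-cohort inputs against WT bulk, and 71 to 264 for the SAPAP3-cohort WT inputs against the neuron-cohort inputs, for which 122 genes were called with all libraries. The cause of the change without WT input 3 was not tested. For the named genes 4148 values kept their direction and side of the threshold, 73 newly passed it and 16 no longer passed it. A further 63 values, of 16 genes that were not called, changed sign. Among those that no longer passed, Rpl22 fell below the fold limit in several alternatives (lowest log2(FC) 0.90), and Vcam1, Col3a1, Hmox1 and Top2a no longer passed with glmTreat. Scaling by total counts moved the median log2(FC) of all genes to 0.0369. Inputs were shallower than bulk libraries, so that genes with few reads are measured less precisely in them. Fewer long genes were called higher, with 2.29% in the longest and 7.35% in the shortest of 5 equal bins of merged exon length.

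The values that changed sign are log2(FC) of inputs over bulk. Without the filter they were -0.0025 for Nos1 and -0.00041 for Syt1. With total counts they were 0.029 for Pdgfrb, 0.0078 for Slc17a7, 0.021 for Hspa5 and 0.0095 for Rpph1, and with upper quartile scaling 0.0064 for Pdgfrb. With FPKM above 5 they were 0.014 for Slc17a7, 0.028 for Hspa5 and 0.018 for Rpph1. With Xist as a covariate they were 0.016 for Ddx3y, 0.15 for Kdm5d, 0.070 for Uty, 0.26 for Eif2s3y, 0.0053 for Pdgfrb, -0.011 for Nos1 and -0.0066 for Mcm5. Without the 2 bulk libraries of one animal number they were 0.0046 for Pdgfrb, 0.22 for Slc17a7 and -0.028 for Mcm5. Without WT bulk 1 and 4 they were 0.11 for Eif2s3y, -0.029 for Apoe, 0.53 for Slc17a7, 0.11 for Hspa5, -0.022 for Mcm5 and -0.029 for Crb1. Without WT inputs 1 and 3 they were -0.013 for Rgs5, -0.012 for Nos1, 0.18 for Slc17a7 and 0.065 for Hspa5. Leaving out each library in turn gave ranges of -0.36 to 0.058 for Kdm5d, -0.25 to 0.15 for Eif2s3y, -0.17 to 0.034 for Cd4, -0.015 to 0.13 for Cnp, -0.058 to 0.011 for Pdgfrb, -0.015 to 0.059 for Nos1, -0.15 to 0.19 for Slc17a7, -0.028 to 0.093 for Syt1, -0.081 to 0.055 for Hspa5 and -0.0097 to 0.082 for Mcm5.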

Other observations

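The IP libraries of the same SAPAP3-cohort mice, whose tagged cell type the labels do not name, held several of the genes described above. Over these 8 libraries Gfap was at 2229 to 4041 CPM, B2m at 838 to 1984 CPM, C4b at 1267 to 2254 CPM and Gbp2, a guanylate-binding protein gene of the interferon response, at 301 to 1217 CPM. The microglial gene Ctss was at 4.51 to 30.8 CPM and Igj at 1.00 to 5.38 CPM in the same IP libraries, below every input of that cohort. In the 4 inputs of the further WT cohort labelled C57/BL6NTac, Cd74 was at 56.2 to 109 CPM and Gbp2 at 26.0 to 72.9 CPM, where the bulk libraries had at most 2.47 CPM of Cd74 and 4.79 CPM of Gbp2. No test was made on these values, and Gbp2 was chosen after its values were seen.

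Lcn2, a secreted iron-binding protein gene of reactive astrocytes chosen after its values were seen, had a log2(FC) of inputs over bulk of 4.12 in WT mice and 0.43 in KO mice. The difference between the genotypes had an adjusted p of 0.86 in edgeR. Lcn2 was at 0.0154 to 2.24 CPM in the bulk libraries (1 to 148 counts, median 0.0893 CPM) and at 0.377 to 2.87 CPM in the inputs. The size of these ratios therefore rests on few reads in some bulk libraries.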
